A study of Mus musculus with 6 samples.

Results

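The genes described here are 8 components of the caspase machinery: the caspases Casp1, Casp2, Casp6, Casp8 and Casp9, the scaffold Apaf1, the adaptor Fadd and the caspase-8 regulator Cflar. They were taken by symbol from the authors' table of 16448 genes, in which all 8 have a row. RNA was sequenced from CD4+CD8+ (double-positive) thymocytes, a stage when T cell receptors are tested and most developing cells die, sorted by flow cytometry from C57BL/6 mice. In the KO group (3 libraries) the mice were Mettl14fl/fl; CD4-Cre+, so that the floxed gene is deleted under a Cre driven by Cd4 sequences, which becomes active around this stage. The WT group (3 libraries) came from littermate controls, labelled WT, for which the labels do not say whether a floxed allele or Cre was present. Ages, sexes and whether each library came from a separate animal are not stated in the labels, so the p-values measure only how these libraries vary, some of which may be technical. METTL14 works with METTL3 in the enzyme that writes N6-methyladenosine (m6A) on RNA, and the series title names p53-dependent apoptosis as a subject of the study.

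Caspases are proteases that cut after aspartate and are made as inactive precursors. Death receptors such as Fas recruit the adaptor Fadd and, through it, Casp8, while Cflar (c-FLIP) joins the same complex and controls Casp8 activity. On the mitochondrial route, cytochrome c released into the cytosol binds Apaf1, whose assembled form, the apoptosome, activates Casp9, which in turn activates executioner caspases. Casp6 acts among the executioners, Casp2 is activated on a scaffold with Pidd1 and Cradd, and Casp1 serves inflammasomes, which ripen interleukin-1 and drive lytic death. In the thymus, cells that receive too strong a receptor signal, or none, are removed mainly by the mitochondrial route.

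The catalytic site separates the caspases from Cflar and is shown here to make that difference visible. Each caspase carries a motif, the caspase active-site pentapeptide, whose cysteine performs the cut. The motif was searched in frame in the longest complete coding sequence of each gene in GENCODE M21 (GRCm38, the same assembly as mm10) and was found once in each of the 5 caspases, and in none of Apaf1, Cflar and Fadd. Among 11309 tested genes with a coding transcript, 39 held it (0.345%). Capitals mark the cysteine codon, within 33 coding bases read 5′ to 3′.
Casp1: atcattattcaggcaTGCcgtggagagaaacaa
Casp2: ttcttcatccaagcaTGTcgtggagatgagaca
Casp6: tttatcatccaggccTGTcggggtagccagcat
Casp8: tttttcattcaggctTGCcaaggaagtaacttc
Casp9: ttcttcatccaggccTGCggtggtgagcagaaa
Cflar: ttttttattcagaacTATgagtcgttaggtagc
The Casp8 stretch lies on the plus strand at chr1:58844604-58844636, with the cysteine as codon 382. In Casp1 (codon 284, chr9:5303750-5304194), Casp2 (codon 320, chr6:42276761-42279784), Casp6 (codon 146, chr3:129910687-129912138) and Casp9 (codon 325, chr4:141807238-141811546) the stretch is split by an intron, all on the plus strand. The Cflar stretch (chr1:58752608-58752640, plus strand) is the place that aligns with the Casp8 site when the coding sequences are translated, anchored on the preceding glutamine codon. Its capitals mark codon 365, which is no cysteine codon. Casp8 and Cflar shared 31.6% of 437 aligned codons at the protein level, and lie on the same strand of chromosome 1 with 36.5 kb between them.

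Each library held between 29500254 and 33377056 counts in genes. Levels below are CPM, the counts of a gene scaled to the size of its library by TMM, and log2 fold changes are KO over WT. Mettl14 was at 42.2, 40.3 and 36.4 CPM in KO libraries, against 52.1, 58.8 and 55.8 CPM in WT libraries, without overlap, a log2 fold change of -0.49 (SE 0.086) that did not pass over all genes (edgeR adjusted p = 0.289). The floxed exons are not named in the labels, so reads from the undeleted part of Mettl14 may be among these counts. The 7 thymocyte markers Cd4, Cd8a, Cd8b1, Rag1, Rag2, Cd3e and Dntt were all tested, and their summed level was 14880 to 15700 CPM in KO libraries, against 14220 to 15810 CPM in WT libraries.

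No difference between KO and WT thymocytes in these 8 genes was shown beyond the spread between libraries. In 7 of them, all but Casp1, enough reads were counted for the test, and 0 of those 7 passed in edgeR's quasi-likelihood test with Benjamini-Hochberg adjustment, 0 in DESeq2 and 0 by limma-voom. Without adjustment, 0 had an edgeR p under 0.05. Across all 13039 genes tested, 5 passed in edgeR (0.0383%), 88 in DESeq2 and 7 by limma-voom, and 876 had an unadjusted p under 0.05 (6.72%). The 7 log2 fold changes ran from -0.081 for Casp9 to 0.11 for Apaf1, with a median of 0.022 against -0.0040 over all genes tested. Of all genes tested, 48.2% had a larger absolute log2 fold change than Apaf1, the largest of the 7. That share was not matched for precision, as only 5071 of the 13039 genes had a smaller SE than Apaf1. As these are sorted populations, fewer cells of a type and less RNA per cell cannot be told apart.

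**Figure D1:**
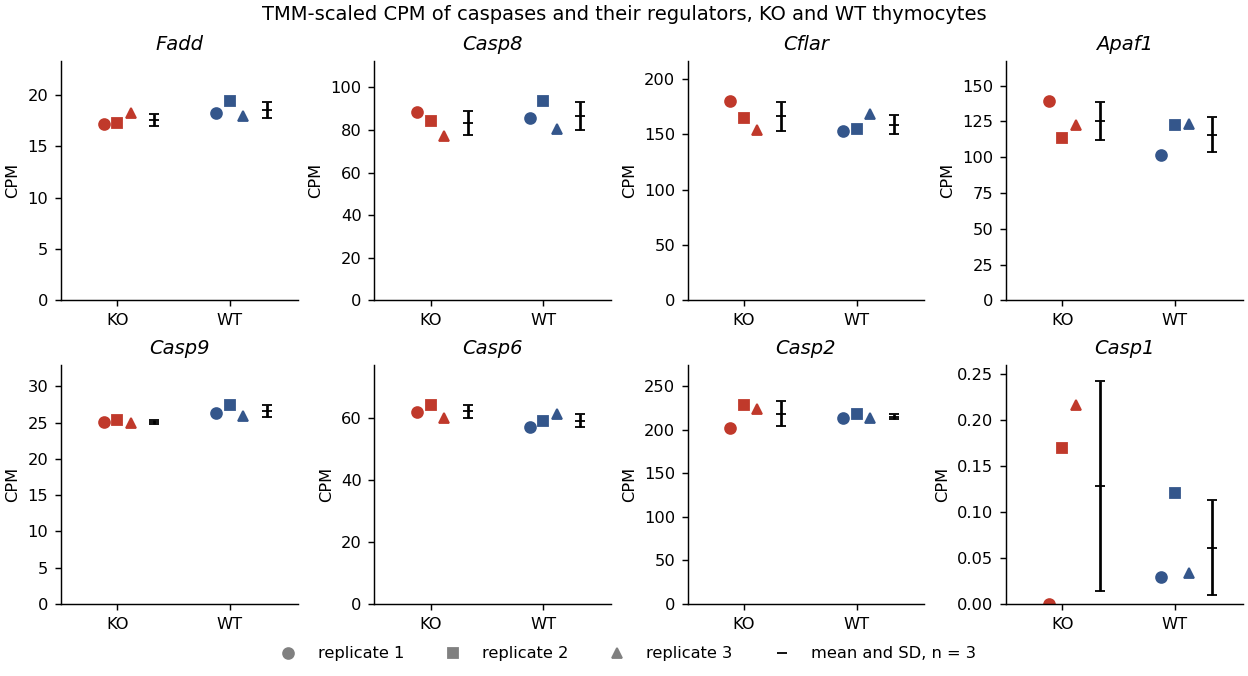
TMM-scaled CPM of each gene in each library, with its own vertical axis starting at 0; circles, squares and triangles are replicates 1, 2 and 3, and the black bars give the mean and SD of 3 libraries. KO (red, left) and WT (blue, right) overlap in 7 of the 8 panels, and Casp9 is the 1 gene whose KO libraries, at 24.9 to 25.4 CPM, all lie below the WT libraries, at 26.0 to 27.5 CPM. Over all tested genes, the groups did not overlap for 12.6%.

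On the death receptor route, Fadd, the adaptor that links receptor to caspase, was the least abundant of the tested genes in CPM. It was at 17.1, 17.2 and 18.2 CPM in KO libraries, against 18.2, 19.4 and 17.9 CPM in WT libraries. KO replicate 3 lay among the WT libraries. Fadd had a log2 fold change of -0.079 (SE 0.097, 95% interval -0.30 to 0.15, edgeR adjusted p = 0.884), and it was -0.044 without WT replicate 2.

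Casp8 (chromosome 1, 58795374 to 58847503), the initiator caspase of this route, was at 88.3, 84.4 and 77.1 CPM in KO libraries, against 85.4, 93.6 and 80.4 CPM in WT libraries. KO replicate 3 lay below all WT libraries and KO replicate 1 above all but WT replicate 2, so the groups overlapped. Its log2 fold change of -0.054 (SE 0.085) had a 95% interval of -0.25 to 0.14 (edgeR adjusted p = 0.915). That interval corresponds to a level in KO between 0.840 and 1.10 times that in WT.

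Cflar (chromosome 1, 58711508 to 58758884), which encodes c-FLIP, had 180, 165 and 154 CPM in KO libraries, against 153, 155 and 168 CPM in WT libraries. KO replicate 1 was the highest library and WT replicate 1 the lowest. The log2 fold change was 0.067 (SE 0.079, 95% interval -0.12 to 0.25, edgeR adjusted p = 0.881), and it was 0.0087 without KO replicate 1. Counts are per gene, so the long and short forms of c-FLIP, which act differently on Casp8, were not separated.

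The balance between Cflar and Casp8 was also compared as a ratio of counts per kb within each library, which needs no scaling between libraries. With the gene lengths in the count table, the ratio was 0.684, 0.655 and 0.670 in KO libraries, against 0.602, 0.555 and 0.702 in WT libraries. The KO libraries lay close together and inside the wider range of the WT libraries. A mean difference of 0.12 on the log2 scale had p = 0.4 in a two-sided exact permutation test (n = 3 each), where 0.1 is the smallest p this design allows. The difference was 0.043 without WT replicate 2 and 0.21 without WT replicate 3.

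On the mitochondrial route, Apaf1 (chromosome 10, 90989311 to 91082770, minus strand), the apoptosome scaffold, was at 139, 113 and 123 CPM in KO libraries, against 102, 122 and 123 CPM in WT libraries. The highest value was KO replicate 1 and the lowest WT replicate 1, and the other 4 libraries lay between 113 and 123 CPM. The log2 fold change was 0.11 (SE 0.11, 95% interval -0.13 to 0.36, edgeR adjusted p = 0.847). It was 0.032 without KO replicate 1 and 0.028 without WT replicate 1. The interval of Apaf1 spans a level in KO between 0.913 and 1.28 times that in WT. Apaf1 is a known transcriptional target of p53, whose activity was not tested here.

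Casp9 (chromosome 4, 141793612 to 141815976), the initiator caspase that the apoptosome activates, was at 25.0, 25.4 and 24.9 CPM in KO libraries, against 26.3, 27.5 and 26.0 CPM in WT libraries. The groups did not overlap, with KO lower, as happened for 5.97% of tested genes in that direction and for 12.6% in either. The difference was small, with a log2 fold change of -0.081 (SE 0.080, 95% interval -0.27 to 0.10, edgeR adjusted p = 0.857). Its replicates were close, with a within-group SD of 0.032 on the log2 CPM scale, the lowest of the 7. The median over all tested genes, whatever their level, was 0.16. The edgeR test moderates such small spreads towards those of other genes.

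Within each library, Casp9 relative to Apaf1, per kb of gene length in the count table, was also taken as a ratio. It was 0.464, 0.578 and 0.523 in KO libraries, against 0.665, 0.578 and 0.545 in WT libraries. KO replicate 2 lay level with WT replicate 2 and above WT replicate 3, so the groups overlapped. The mean log2 difference of -0.19 had p = 0.2 in the two-sided exact permutation test (n = 3 each). It was -0.11 without KO replicate 1 or without WT replicate 1.

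Casp6 (chromosome 3, 129901425 to 129914103), an executioner that cuts nuclear lamins, was at 62.2, 64.4 and 60.2 CPM in KO libraries, against 57.1, 59.1 and 61.3 CPM in WT libraries. The lowest KO library was under the highest WT library, so the groups overlapped. The log2 fold change was 0.073 (SE 0.068, 95% interval -0.084 to 0.23, edgeR adjusted p = 0.847), and it was 0.048 without WT replicate 1.

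Casp2 (chromosome 6, 42264985 to 42282508), a caspase activated after DNA damage and by extra centrosomes, had the most counts of the 8 genes. It was at 202, 229 and 224 CPM in KO libraries, against 213, 218 and 214 CPM in WT libraries. The KO libraries lay on both sides of the WT libraries. With a log2 fold change of 0.022 (SE 0.068), its 95% interval of -0.14 to 0.18 set the KO level between 0.910 and 1.13 times that of WT (edgeR adjusted p = 0.961). Without KO replicate 2 the fold change was -0.0052.

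**Figure D2:**
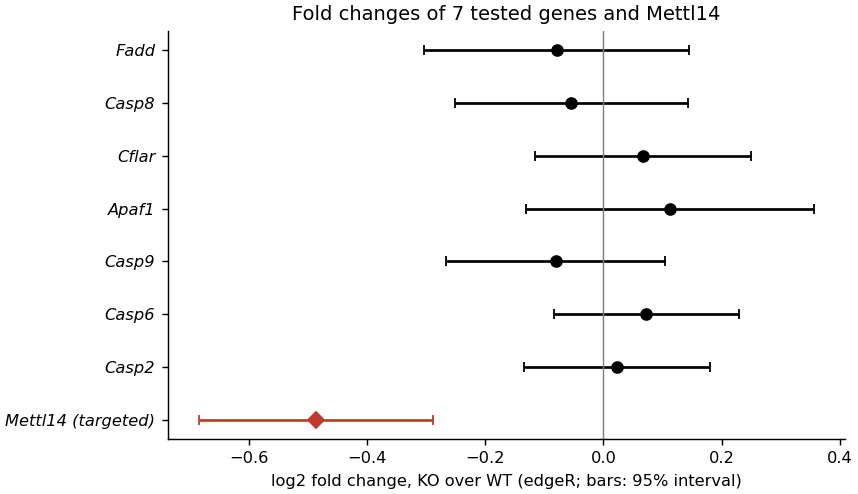
Log2 fold change of KO over WT for the 7 tested genes (black) and for the targeted gene Mettl14 (red), with 95% intervals from the edgeR fit as horizontal bars. Every black interval crosses 0 and ends between -0.30 and 0.36, while Mettl14 lies at -0.49 with an interval of -0.69 to -0.29.

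Casp1 (chromosome 9, 5298517 to 5307265), the inflammasome caspase, was close to undetected in these thymocytes. Its raw counts were 0, 5 and 7 in KO libraries, against 1, 4 and 1 in WT libraries. In sum that was 12 counts in KO (exact 95% Poisson interval 6.20 to 20.96) and 6 counts in WT (2.20 to 13.1), with intervals that cover counting error only. The ratio of KO to WT, adjusted for library size, was 2.10 with an exact 95% counting interval of 0.729 to 6.82, so no difference was detectable at this depth. With no filter on low counts, edgeR gave a log2 fold change of 1.03 (adjusted p = 0.779).

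Markers of myeloid and dendritic cells, in which Casp1 is abundant, were counted at low levels in the same libraries. Cd74 was at 2.42, 18.7 and 10.5 CPM in KO libraries, against 2.69, 5.15 and 3.52 CPM in WT libraries. The macrophage lysozyme gene Lyz2 was at 0.497, 0.915 and 4.28 CPM in KO libraries, against 0.293, 0.727 and 1.06 CPM in WT libraries. Of 12 myeloid and dendritic markers, all had counts in some library and 8 were tested, and their summed level was 100.1, 131 and 115 CPM in KO libraries, against 96.6, 101 and 100.2 CPM in WT libraries. Cst3 alone, which other cells express too, made up 55.9 to 60.1 CPM of that sum in KO libraries, against 50.95 to 55.7 CPM in WT libraries. The median log2 fold change over the 8 tested markers was 0.91. The listed markers did not all lean one way. Itgam was at 20.9, 29.4 and 17.1 CPM in KO libraries, against 26.4, 28.0 and 25.0 CPM in WT libraries. For NK and innate lymphocytes, 4 of 8 markers were tested, with a median log2 fold change of 0.60. Their summed level over the 8 was 51.1, 44.6 and 51.7 CPM in KO libraries, against 32.2, 41.5 and 44.4 CPM in WT libraries. Gzma alone made up 47.3, 38.2 and 46.0 CPM of that sum in KO libraries, against 25.9, 36.8 and 40.1 CPM in WT libraries. Prf1 leaned the other way, at 2.55, 4.54 and 3.44 CPM in KO libraries, against 5.44, 3.94 and 3.69 CPM in WT libraries. The median of 0.60 rests in part on low levels. Nkg7, with a log2 fold change of 1.30 (SE 0.55), was at 0.265, 0.847 and 1.18 CPM in KO libraries, against 0.293, 0.394 and 0.239 CPM in WT libraries. Of 6 B cell markers 4 were tested, with a median log2 fold change of 0.054. Ms4a1, like Cd74, was highest in KO replicate 2, at 0.0995, 2.10 and 1.12 CPM in KO libraries, against 0.263, 0.242 and 0.171 CPM in WT libraries. Igkc leaned the other way, at 1.39, 9.65 and 4.49 CPM in KO libraries, against 1.35, 38.4 and 10.9 CPM in WT libraries. The part of any of these cell types in the Casp1 counts was not tested.

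Levels were compared between genes per kb of length, since longer genes collect more reads. With the gene lengths in the count table, Casp6 was highest, at 23.97 ± 0.822 CPM per kb in KO and 22.8 ± 0.808 in WT (SD, n = 3 each). Casp2 followed at 18.6 ± 1.22 in KO and 18.3 ± 0.236 in WT, and Casp8 at 10.4 ± 0.711 in KO and 10.8 ± 0.835 in WT. Cflar came 4 in the order, at 6.99 ± 0.551 in KO and 6.68 ± 0.348 in WT. Below it, Apaf1 at 5.16 ± 0.540 in KO and 4.77 ± 0.497 in WT was not separated from Fadd at 4.49 ± 0.153 in KO and 4.75 ± 0.199 in WT, the only neighbours in this order whose ranges over the 6 libraries overlapped. Within libraries, Apaf1 was above Fadd in 5 of the 6. Casp9 was at 2.67 ± 0.0283 in KO and 2.83 ± 0.0846 in WT, and Casp1, in last place, had a mean of 0.0860 in KO and 0.0411 in WT.

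This order depended on the length used. The count table gives Cflar a length of 23787 bases. Its GENCODE M21 transcript with the longest complete coding sequence has 1771 bases, of which 1452 are coding. For Apaf1 the lengths were 24241 and 6577 bases, and for Casp6 they were 2597 and 1456 bases. The length of the transcript with the longest coding sequence, a choice made after seeing the data, gave another order. Per kb of it, Cflar was first, at 93.9 ± 7.41 CPM per kb in KO and 89.7 ± 4.68 in WT (SD, n = 3 each). Other transcripts of a gene can be longer than the one chosen. Casp2 came next at 61.8 ± 4.06 in KO and 60.9 ± 0.777 in WT. Casp8, at 45.04 ± 3.07 in KO and 46.8 ± 3.61 in WT, overlapped in range with Casp6, at 42.8 ± 1.47 in KO and 40.7 ± 1.44 in WT. Within libraries, Casp8 was above Casp6 in all 6. Apaf1, Casp9, Fadd and Casp1 followed in that order.

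**Figure D3:**
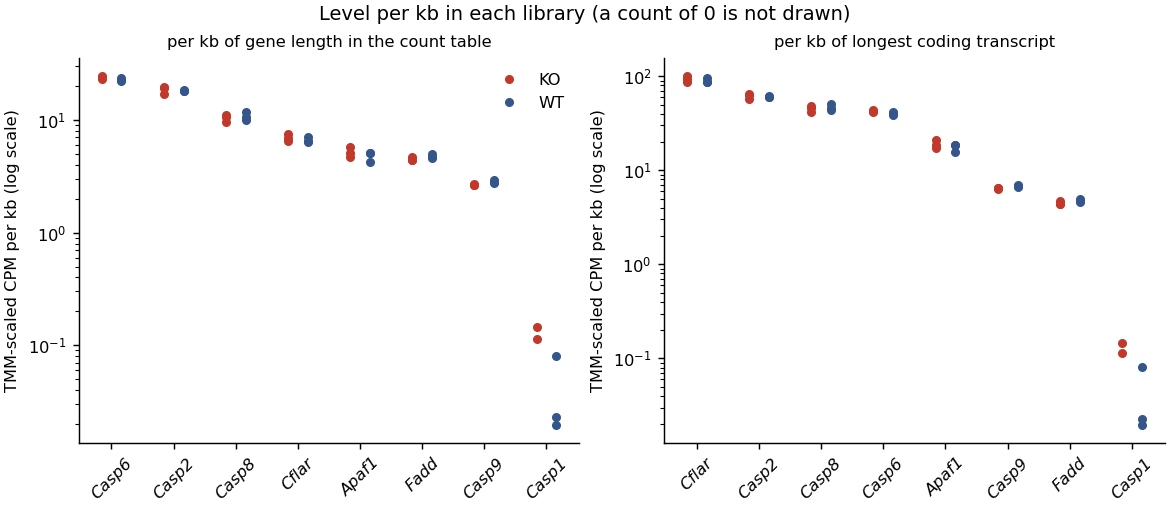
TMM-scaled CPM per kb in each library on a log scale, KO red and WT blue, with each panel ordered by mean level. Levels were divided by the gene length in the count table (left panel) or by the length of the transcript with the longest coding sequence (right panel). Cflar has place 4 in the left panel and 1 in the right, and Casp1, whose count of 0 in 1 KO library cannot be drawn on a log scale, is last in both.

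The libraries did not rank alike in every gene. Apaf1 and Cflar were both highest in KO replicate 1 and lowest in WT replicate 1, whereas Casp2 was lowest in KO replicate 1. Casp9 and Fadd were the most alike pair, with a root mean square difference of 0.036 between their centred log2 CPM over the 6 libraries, and Apaf1 and Casp2 the least alike, at 0.17. Among 9033 other genes whose log2 CPM averaged 3 or more, the gene nearest to each was Igf2r for Casp6 (0.011), Cwc22 for Fadd (0.013), Sugp2 for Casp9 (0.013), 5830405F06Rik for Casp2 (0.017), Slx4 for Cflar (0.018), Tapbpl for Casp8 (0.020) and Ptar1 for Apaf1 (0.022). With 6 libraries and this many candidates a close match is easily found, so these values are a description only.

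Since Mettl14 acts in m6A writing, the transcript with the longest coding sequence of each gene was searched, 5′ to 3′, for GGACT. The enzyme is known to prefer this sequence. Other transcripts of a gene were not searched. m6A itself was not measured in these libraries. Of the tested genes with a coding transcript, 91.5% had at least 1 match, with a median of 1.05 per kb. Casp9 had 8 matches (2.05 per kb, above 89.0% of those genes), Fadd 7 (1.79 per kb) and Apaf1 11 (1.67 per kb, above 79.5%). Casp8 had 2 matches (1.08 per kb), Cflar, Casp6 and Casp1 had 1 each, and Casp2 had 0 in 3529 bases. After the coding sequence lay 5 of the matches in Casp9, 6 in Fadd, 2 in Apaf1 and 0 in each of the other genes. These densities depend on the transcript searched, which had 1771 bases for Cflar and 1849 for Casp8. Sites near the stop codon are shown because m6A is known to gather there, with the motif in capitals and 12 bases on each side.
Casp9: tttctgcgaaagGGACTtacaagcagatt
Casp6: tcagcgccgcgtGGACTtctgcaaagacc
Apaf1: tgttgccactggGGACTcctcacagacct
Fadd: aggagtcactgtGGACTtgatcacaccat
The Casp9 site (chr4:141813608-141813636, plus strand) starts 65 bases before the stop codon, the Casp6 site (chr3:129913459-129913487, plus strand) 100 bases before it, and the Apaf1 site (chr10:90991560-90991588, minus strand) 124 bases before it. The Fadd site (chr7:144580481-144580509, minus strand) starts 34 bases after the first base of the stop codon. Casp9 and Fadd, with the densest matches of the 8, had log2 fold changes of -0.081 (SE 0.080) and -0.079 (SE 0.097). Apaf1, next in density, had 0.11 (SE 0.11). None of these passed the test and each interval holds 0, so the fold changes cannot be ranked. A link between matches and fold change was not tested.

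The genes that act beside these 8 were followed as lists. Of 64 listed genes 54 were tested, and 0 passed in edgeR, with 1 higher (against 3.41% of all tested genes) and 0 lower (against 3.31%) at an unadjusted p under 0.05. The 1 higher gene, Naip2, met the filter on low counts only through its KO libraries. The death receptor list, with receptors, ligands and the proteins around Ripk1, had 22 of 24 genes tested and 0 passing, at a median log2 fold change of 0.065, with 15 of the 22 above 0, against 6375 of all 13039 genes tested. Its lowest p-values were those of Tnfrsf1b, a TNF receptor, at 31.9 ± 2.98 CPM in KO and 27.6 ± 1.78 CPM in WT (SD, n = 3 each, edgeR adjusted p = 0.750), of Daxx and of Birc3. Daxx, a Fas-binding protein, lay at a log2 fold change of 0.12 (SE 0.068) and Birc3, a ubiquitin ligase that restrains cell death, at 0.15 (SE 0.093). Fas itself was at 99.5, 95.3 and 93.0 CPM in KO libraries, against 96.3, 85.3 and 94.3 CPM in WT libraries, named after its values were seen.

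The partners of the apoptosome had 9 of 9 genes tested, 0 passing, and a median log2 fold change of -0.079, with 7 of the 9 below 0, against 6664 of all 13039 genes tested. Aven, an inhibitor that binds Apaf1, was at 7.96, 8.71 and 9.05 CPM in KO libraries, against 8.60, 10.9 and 11.6 CPM in WT libraries. KO replicates 2 and 3 lay above WT replicate 1, so its groups overlapped, with a log2 fold change of -0.27 and an SE of 0.16 (adjusted p = 0.771 in edgeR). Aifm1, a mitochondrial flavoprotein, had a log2 fold change of -0.10 and an SE of 0.067 (adjusted p = 0.792 in edgeR). Xiap, which inhibits Casp9 directly, was at 142, 135 and 142 CPM in KO libraries, against 108, 128 and 148 CPM in WT libraries. Like Apaf1 and Cflar it was lowest in WT replicate 1, with a log2 fold change of 0.13 and an SE of 0.11 (adjusted p = 0.840 in edgeR).

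Both genes of the Casp2 scaffold were tested and 0 passed. Pidd1, a p53-induced death domain protein, had a mean of 89.5 ± 8.33 CPM in KO and 104 ± 21.4 CPM in WT (SD, n = 3 each, log2 fold change -0.21, edgeR adjusted p = 0.804), and Cradd, the adaptor between Pidd1 and Casp2, had a log2 fold change of -0.037 (SE 0.17). Among substrates cut by caspases in dying cells, 13 of 13 were tested and 0 passed, with a median of -0.020. Panx1, a membrane channel opened by cleavage, had a log2 fold change of 0.23 (SE 0.11), Pak2, a kinase, of 0.16 (SE 0.085) and Acin1, linked to chromatin condensation, of -0.12 (SE 0.066).

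The inflammasome list, the surroundings of Casp1, had 8 of 16 genes tested and 0 passing, with a median of 0.049, and the other 8 had too few counts. Naip2, a sensor of bacterial proteins, had 40 counts in KO and 8 in WT. Its log2 fold change of 2.34 (SE 0.41) had an unadjusted p of 5.23e-04 in edgeR's fit and did not pass after adjustment (adjusted p = 0.289). Naip2 met the filter on low counts only through its KO libraries, at 0.398, 0.474 and 0.434 CPM. The WT libraries were at 0.0878, 0.0908 and 0.0683 CPM. As that filter favours a gene that is high in KO, no conclusion is drawn from this p. Naip2 has related genes of the Naip family beside it, and whether reads shared with them affected its counts was not tested. The tested myeloid and dendritic markers had the median log2 fold change of 0.91 given above. The part of those cells, or of B cells, in the Naip2 counts was not tested either. Nek7, which takes part in Nlrp3 activation, was at 66.5 ± 2.18 CPM in KO and 60.0 ± 2.89 CPM in WT (SD, n = 3 each, log2 fold change 0.15, edgeR adjusted p = 0.750). Aim2, a sensor of cytosolic DNA, varied widely, at 17.9, 23.1 and 45.2 CPM in KO libraries, against 42.4, 36.9 and 30.7 CPM in WT libraries, and its groups overlapped.

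**Figure D4:**
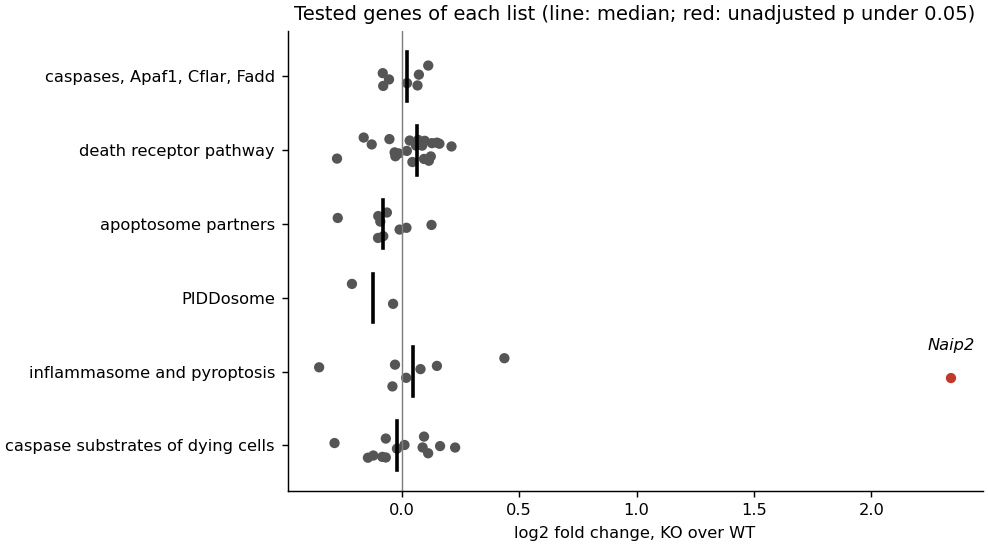
Log2 fold change of KO over WT for every tested gene of the caspase group and of the 5 lists around it, with 1 point a gene, the median as a black line and an unadjusted p under 0.05 in red. Naip2 at 2.34 is the 1 red point, and it did not pass after adjustment over all genes. It met the filter on low counts only through its KO libraries.

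In the authors' deposited table, from their own DESeq2 fit, the 8 genes have adjusted p-values of 0.999. The authors' deposited table gives log2 fold changes of -0.074 for Casp9, -0.073 for Fadd, -0.048 for Casp8, 0.029 for Casp2, 0.073 for Cflar, 0.080 for Casp6 and 0.12 for Apaf1. For Casp1 the authors' deposited table gives 0.96 with a standard error of 1.67.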

How the data were processed

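Sorted double-positive thymocytes from 3 KO and 3 WT samples were sequenced as TruSeq libraries, per the labels' protocols. The submitters' processing notes name Trimmomatic 0.33, STAR 2.5.2, HTSeq and DESeq2 on mm10; how reads were counted, whether strand was used and which annotation served is not given in the sources used here. The authors deposited raw counts per gene with gene lengths, a normalized signal (counts over a size factor of the library, per the values), and, per the file headers, log2 fold changes, a Wald score and p-values from their DESeq2 fit. That fit's file is named as paired, and the labels name no pairing.

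Reads without a feature (12.3% to 15.2% per library), with several alignments (22.6% to 23.9%) or ambiguous (0.653% to 0.701%) stayed out of library sizes and tests. Of 43430 gene identifiers, 42462 matched the name table. In GENCODE M21 no annotated gene sharing exon bases with the 8 had more than 7 counts in a library. Replicates differed by more than sampling noise (chi-square over degrees of freedom at least 17.3).

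edgeR 4.0.16 in R 4.3.3 (TMM, filterByExpr, quasi-likelihood, group alone, two-sided, Benjamini-Hochberg over 13039 genes, threshold 0.05) gave the tests. Standard errors are the log2 fold change over the square root of F, and 95% intervals use the fit's moderated degrees of freedom. DESeq2 1.42.0, limma-voom (limma 3.58.1), other scalings, no filter, blocks and libraries left out were alternatives. The fitting code was tested on simulated data. The genes and lists were chosen with earlier results of these data known. Besides the 8 genes, the rule named Mettl14, Cd74 and Lyz2, the 3 genes of lowest p in each list, and the nearest gene in centred log2 CPM (prior count 2). Some genes of the lists and markers are not reported here.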

Additional observations from a re-analysis of the deposited data

How the results depend on the processing

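Where tested, 0 of the 8 genes and 0 of the listed genes passed under any of the 14 alternative fits: RLE or upper-quartile scaling, no filter, DESeq2, limma-voom, 2 blocks, replicates 1 and 2 alone, and 6 fits with a library left out. The sign changed for Casp2 without KO replicate 2 (-0.0052) and for Casp8 without KO replicate 3 (7.45e-04) or WT replicate 2 (0.0069). With libraries left out, log2 fold changes ranged from -0.0052 to 0.078 for Casp2, from -0.098 to 0.0069 for Casp8, from 0.028 to 0.19 for Apaf1, from 0.0087 to 0.12 for Cflar, from 0.048 to 0.11 for Casp6, from -0.105 to -0.044 for Fadd and from -0.091 to -0.056 for Casp9. The count of all genes called was 30 with no filter, 88 with DESeq2 and 4 to 23 with a library left out (14 without KO replicate 2, 8 without WT replicate 1 and 23 without WT replicate 3), and the cause was not tested. Cflar ranked 4 among the 8 by level with the count table's lengths and 1 with the transcript of longest coding sequence, whose lengths differ by construction. Correlations of same-numbered deviations were -0.15, 0.080 and 0.19 for KO replicates 1, 2 and 3. Only KO replicate 3 correlated best with its own number. Whether the samples were paired was not tested. The replicate block gave 5 calls, as without it, with a median of 0.020 over the 7 tested genes. With 3 libraries a group, the interval of Apaf1, the widest of the 7, ran from 0.913-fold to 1.28-fold, and Casp1 had too few counts for a bound of use.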

Other observations

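The 8 genes of the inflammasome list with too few counts for the test, given here as sums over 3 libraries a group, did not all lean one way. Casp4, a caspase that senses bacterial lipopolysaccharide and lies in a cluster with Casp1, had 20 counts in KO and 3 in WT. Naip5, a sensor of flagellin, had 22 counts in KO and 8 in WT. The cytokine gene Il18 had 5 counts in KO and 7 in WT, and Nlrp3, an inflammasome sensor, had 0 in KO and 3 in WT. Mefv had 3 counts in KO and 1 in WT, Nlrc4 2 and 0, and Casp12 and Il1b each 1 in KO and 0 in WT. In the same libraries the tested myeloid and dendritic markers had a median log2 fold change of 0.91, KO over WT, and the tested B cell markers 0.054. The listed markers did not all lean one way, and the part of such cells in these counts was not tested.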
